A study of Mus musculus with 6 samples.

Results

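The clock output factors described here are 8 transcription factor genes: Dbp, Tef, Hlf, Nfil3, Ciart, Bhlhe40, Bhlhe41 and Rora. They were taken by name from the deposited table of 25184 genes, as the PAR bZIP genes, the E4BP4 gene, the DEC genes, 1 ROR gene and Ciart. All 8 passed the filter on low counts that left 15105 genes for testing, and no library held fewer than 115 counts of any of them. The list was chosen by gene family with the CPM and log2 fold changes between the genotypes in these libraries already known, so the genotype values of the members below are given as a description.

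In mammals the circadian clock reaches much of the liver through a second tier of transcription factors. DBP, TEF and HLF, the PAR bZIP proteins, activate genes that carry a D-box, NFIL3 (E4BP4) represses through the same element, and RORα activates through the ROR element, where the REV-ERB proteins repress. DEC1 and DEC2, the products of Bhlhe40 and Bhlhe41, and CIART (CHRONO) repress the CLOCK:BMAL1 dimer, which acts at E-boxes.

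Primary hepatocytes were isolated from chow-fed mice on the C57BL/6J background by enzymatic digestion and density centrifugation and were cultured overnight on collagen. Polyadenylated RNA was sequenced from 3 Sucnr1 fl/fl mice and 3 Hep-Sucnr1 KO mice, to ask what deletion of the succinate receptor SUCNR1 in hepatocytes does to gene expression. All 6 mice carried floxed Sucnr1 alleles. Hep-Sucnr1 KO mice carried in addition a Cre transgene under the hepatocyte Alb promoter, whereas the controls carried no Cre, so that Cre and the deletion cannot be told apart. Each genotype had 1 library from extraction day 1 (Sucnr1 fl/fl replicate 1, Hep-Sucnr1 KO replicate 3) and 2 libraries from extraction day 2 (Sucnr1 fl/fl replicates 2 and 3, Hep-Sucnr1 KO replicates 4 and 5). The age and sex of these mice and the time of day at which livers were taken or cells were lysed are not given in the sources used here. Each library is 1 time point of its mouse and culture, so clock phase and level cannot be told apart.

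The libraries held 30504248 to 38770694 counts, and mitochondrial transcripts took 7.70 to 9.71% of them. The targeted gene, Sucnr1, had 258, 118 and 103 counts in the Sucnr1 fl/fl libraries and 84, 28 and 5 in the Hep-Sucnr1 KO libraries, with means of 4.55 and 1.21 CPM (counts scaled to the library total with TMM factors). The hepatocyte markers summed to 57218 to 91727 CPM over the 6 libraries, and Kupffer cell markers to 7.31 to 123 CPM. The library index numbers of Sucnr1 fl/fl replicates 1 and 2 lie apart from those of the other 4 libraries. This split was made here from the numbers alone, is called the index series below and overlaps with genotype in part. The paper describes the same index set and the same sequencing pool for all libraries. Whether the split marks a batch is not stated in the sources used here.

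Upstream sequences of the members were searched for the elements named above, because the members act through these elements and several are themselves known to be controlled by them. RefSeq promoter windows (300 bases, from 250 before to 50 after the start site, GRCm38.p6) matched 7 of the 8 members, with 2 windows for Tef, giving 8 windows. Bhlhe40 had no entry. On both strands, the E-box CACGTG stood in 4 of the 8 windows, against 7.15% of all 32851 windows, and belonged to Ciart, Bhlhe41 and both starts of Tef. The ROR element TAGGTCA stood in 1 window, that of Nfil3, against 2.61% of all windows. The D-box was searched as TTATGTAA (0.938% of all windows) and TTACGTAA (0.119%), and neither stood in a member window. The E-prime box CACGTT (4.68% of all windows) was not found in them either. No match overlapped another.

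The 250 bases before each start are shown for the members with a match and for Dbp, the member that differed most between genotypes, from 5′ to 3′ on the strand of the gene. Capitals mark the E-box in Tef, Ciart and Bhlhe41 and, in Nfil3, the ROR element, which lies on the opposite strand and reads TGACCTA here. The windows lie at chr7:45704997-45705246 (Dbp), chr15:81802423-81802672 and chr15:81811164-81811413 (the starts of Tef), chr3:95882229-95882478 (Ciart), chr6:145865421-145865670 (Bhlhe41) and chr13:52981040-52981289 (Nfil3). Dbp and Tef are on the plus strand and the other 3 genes on the minus strand.
Dbp: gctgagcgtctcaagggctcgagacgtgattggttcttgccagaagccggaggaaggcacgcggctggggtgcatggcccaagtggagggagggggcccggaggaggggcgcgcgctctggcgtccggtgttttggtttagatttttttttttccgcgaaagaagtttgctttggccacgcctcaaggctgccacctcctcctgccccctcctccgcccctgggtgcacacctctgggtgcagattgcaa
Tef, start 1: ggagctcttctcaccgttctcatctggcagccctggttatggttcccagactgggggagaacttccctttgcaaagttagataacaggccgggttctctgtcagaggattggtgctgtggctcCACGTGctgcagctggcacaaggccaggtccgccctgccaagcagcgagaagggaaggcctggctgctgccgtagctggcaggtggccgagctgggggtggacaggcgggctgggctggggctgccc
Tef, start 2: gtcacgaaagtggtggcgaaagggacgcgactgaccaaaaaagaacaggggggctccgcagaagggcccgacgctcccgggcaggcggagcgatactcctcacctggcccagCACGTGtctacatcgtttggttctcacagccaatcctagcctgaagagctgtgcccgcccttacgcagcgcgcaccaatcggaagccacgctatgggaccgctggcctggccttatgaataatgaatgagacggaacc
Ciart: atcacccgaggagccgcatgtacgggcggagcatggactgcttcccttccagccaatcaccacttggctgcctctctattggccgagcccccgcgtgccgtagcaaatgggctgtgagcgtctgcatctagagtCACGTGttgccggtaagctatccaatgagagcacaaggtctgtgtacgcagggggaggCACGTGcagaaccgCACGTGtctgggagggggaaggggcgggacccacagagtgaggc
Bhlhe41: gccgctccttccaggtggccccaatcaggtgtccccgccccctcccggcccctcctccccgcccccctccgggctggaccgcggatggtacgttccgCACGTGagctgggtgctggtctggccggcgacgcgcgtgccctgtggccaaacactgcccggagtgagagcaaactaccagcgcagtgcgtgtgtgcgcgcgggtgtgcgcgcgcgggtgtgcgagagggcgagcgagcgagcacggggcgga
Nfil3: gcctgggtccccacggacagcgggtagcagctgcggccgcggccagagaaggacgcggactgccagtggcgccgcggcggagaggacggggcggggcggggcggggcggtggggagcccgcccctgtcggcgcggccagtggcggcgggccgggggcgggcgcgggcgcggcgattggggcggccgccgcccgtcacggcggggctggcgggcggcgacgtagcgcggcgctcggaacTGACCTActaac

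Ciart held 3 E-boxes, which began 116, 58 and 44 bases before its start. The E-box of Bhlhe41 began 153 bases before the start, and those of Tef began 127 and 138 bases before its first and second start. The ROR element of Nfil3 began 12 bases before the start. A match is a run of letters and was not tested for binding.

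Levels between the genes were compared as CPM per kb of exon. Bhlhe40 stood highest at 179 ± 28.4 (SD, n = 6 libraries), above 98.3% of the genes tested, and Nfil3 followed at 23.1 ± 6.36. Tef came next at 7.47 ± 1.93, and the ranges over the libraries did not overlap between Bhlhe40 and Nfil3 or between Nfil3 and Tef. Dbp at 7.13 ± 3.00, Bhlhe41 at 5.66 ± 2.40, Rora at 4.93 ± 0.716 and Ciart at 3.37 ± 0.971 followed Tef, and each neighbouring pair in this order, Tef and Dbp included, had overlapping ranges. Tef exceeded Dbp in 3 of the 6 libraries. Hlf was lowest at 0.728 ± 0.172 CPM per kb, below the range of Ciart and above only 31.2% of the genes tested.

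**Figure D1:**
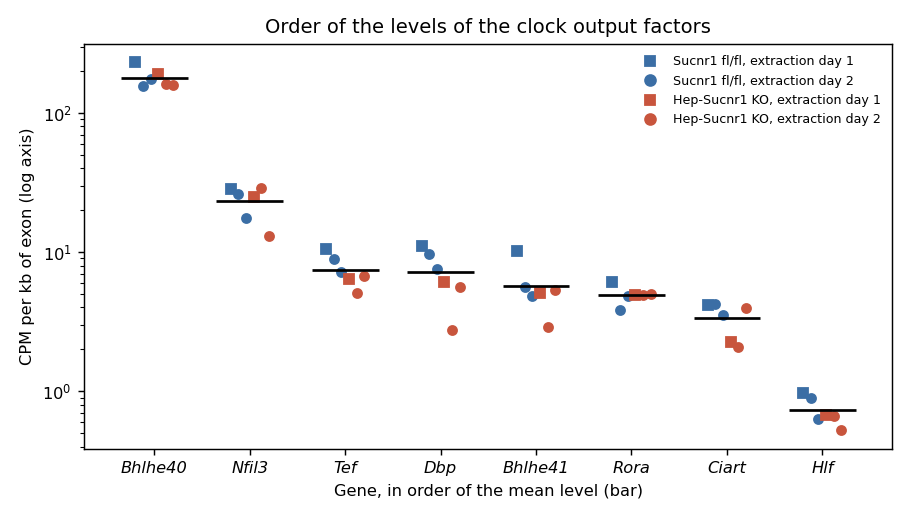
Levels of the 8 clock output factors in CPM per kb of exon (log axis), 1 symbol per library, ordered by the mean over 6 libraries (bar). Bhlhe40 lies between 156 and 231, Hlf between 0.522 and 0.977, and the 5 genes from Tef to Ciart overlap with their neighbours.

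Dbp, Tef and Hlf, the D-box activators, were each lower on average in Hep-Sucnr1 KO hepatocytes. Dbp (ENSMUSG00000059824, chr7:45705088-45710203, plus strand), named for binding the D-box of the albumin promoter, had 33.1, 29.2 and 22.5 CPM in Sucnr1 fl/fl replicates 1, 2 and 3. In Hep-Sucnr1 KO replicates 3, 4 and 5 it had 18.4, 8.24 and 16.8 CPM. All 3 KO libraries lay below all 3 controls, as in 4.04% of all genes tested, and KO replicate 4 was far below the other KO libraries. The means were 28.3 ± 5.35 and 14.4 ± 5.44 CPM (SD, n = 3), and the fitted log2 fold change was -0.98 (SE 0.26), 49.4% lower. Against the controls of the same day, Dbp stood at 55.4% in KO replicate 3, 31.9% in replicate 4 and 64.8% in replicate 5. Among the 15105 genes its SD of log2 CPM over the libraries was larger than that of 90.5%. Leaving out 1 library moved the fold change between -1.29 (without KO replicate 5) and -0.72 (without KO replicate 4). With the index series as a further term, which leaves Sucnr1 fl/fl replicate 3 as the only control in its series, it was -0.79.

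Tef (ENSMUSG00000022389, chr15:81802421-81826863, plus strand), thyrotroph embryonic factor, had 82.5, 70.0 and 56.9 CPM in the Sucnr1 fl/fl libraries and 50.4, 39.8 and 53.2 CPM in the KO libraries. The groups did not overlap, although KO replicate 5 came within a few CPM of Sucnr1 fl/fl replicate 3. The means were 69.8 ± 12.8 and 47.8 ± 7.05 CPM, with a log2 fold change of -0.54 (SE 0.16). Hlf (ENSMUSG00000003949, chr11:90336536-90390895, minus strand), hepatic leukemia factor, had 6.53, 5.98 and 4.22 CPM against 4.53, 4.46 and 3.49 CPM. Its groups overlapped, since Sucnr1 fl/fl replicate 3 lay below KO replicates 3 and 4, and its log2 fold change was -0.42 (SE 0.21). The share of Dbp in the summed activators, per kb, was 48.9 to 49.9% in the controls and 46.4, 32.5 and 43.5% in KO replicates 3, 4 and 5. Dbp and Tef were therefore at about equal levels in the controls, and in KO replicate 4 Tef made up 59.7% of the sum.

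Nfil3, the repressor at the D-box (ENSMUSG00000056749, chr13:52967209-52981073, minus strand), did not follow Dbp and Tef. It had 57.3, 53.0 and 35.7 CPM in the Sucnr1 fl/fl libraries and 50.1, 58.5 and 26.6 CPM in the KO libraries. KO replicate 4, lowest for Dbp and Tef, was highest for Nfil3, and KO replicate 5 was lowest, as it was for Hlf. The means were 48.7 ± 11.4 and 45.1 ± 16.6 CPM, with a log2 fold change of -0.10 (SE 0.29) that ran from -0.50 without KO replicate 4 to 0.15 without KO replicate 5.

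The balance at the D-box was expressed per library as the log2 ratio of the summed Dbp, Tef and Hlf levels to the Nfil3 level, all per kb. It was -0.33, -0.42 and -0.20 in the Sucnr1 fl/fl libraries and -0.90, -1.77 and -0.03 in the KO libraries. KO replicates 3 and 4 lay below all controls and KO replicate 5 above them, so the groups overlapped. The mean was -0.32 ± 0.11 in the controls and -0.90 ± 0.87 in the KO libraries, where the SD exceeded the difference of means, -0.58. Without KO replicate 4 the difference was -0.15.

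**Figure D2:**
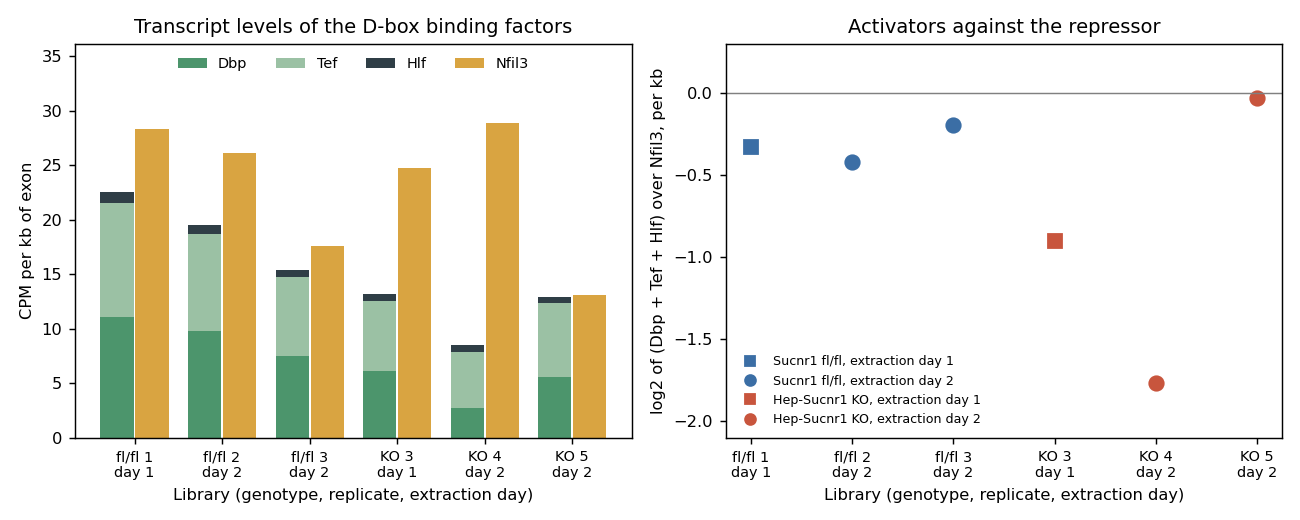
Left, CPM per kb of exon of Dbp, Tef and Hlf (stacked) beside Nfil3 in each library. Right, log2 of their sum over Nfil3, from -0.42 to -0.20 in the Sucnr1 fl/fl libraries and from -1.77 to -0.03 in the Hep-Sucnr1 KO libraries, with squares for extraction day 1 and circles for day 2.

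Ciart, Bhlhe40 and Bhlhe41 encode repressors of CLOCK:BMAL1, and their groups overlapped. Ciart (ENSMUSG00000038550, chr3:95878503-95882251, minus strand), with 3 E-boxes before its start, had 9.39, 9.62 and 7.94 CPM in the Sucnr1 fl/fl libraries and 5.06, 4.69 and 8.95 CPM in the KO libraries. KO replicates 3 and 4 lay below the controls, and KO replicate 5 lay among them, at 102% of the same-day controls. The log2 fold change was -0.54 (SE 0.27), and it ran from -0.90 without KO replicate 5 to -0.35 without KO replicate 4.

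Bhlhe41 (ENSMUSG00000030256, chr6:145858243-145865558, minus strand) had 68.2, 37.8 and 32.4 CPM against 34.4, 19.4 and 36.0 CPM. Sucnr1 fl/fl replicate 1 stood far above the rest, KO replicate 4 stood lowest, and the other 4 libraries lay between 32.4 and 37.8 CPM. The log2 fold change was -0.56 (SE 0.25), and it became -0.91 when KO replicate 5 was left out and -0.34 when Sucnr1 fl/fl replicate 1 was. Bhlhe40 (ENSMUSG00000030103, chr6:108660629-108666925, plus strand), the most abundant member, had 1087, 732 and 832 CPM against 894, 763 and 752 CPM. Its genotypes were intermixed below Sucnr1 fl/fl replicate 1, with a log2 fold change of -0.12 (SE 0.14) that ran from -0.20 to -0.05 with 1 library left out. Bhlhe41 and Bhlhe40, which encode related repressors, thus differed in how far their libraries spread, with highest to lowest ratios of 3.51 and 1.49.

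Rora (ENSMUSG00000032238, chr9:68653786-69388246, plus strand), the activator at the ROR element, had 79.6, 50.1 and 63.6 CPM in the Sucnr1 fl/fl libraries and 64.1, 64.2 and 65.3 CPM in the KO libraries. The KO libraries were nearly equal and lay within the range of the controls, with means of 64.4 ± 14.8 and 64.5 ± 0.696 CPM and a log2 fold change of 0.02 (SE 0.15). On day 1 the KO library was lower than its control (log2 ratio -0.31), and on day 2 the KO mean was higher (0.20). The interaction of genotype and day was 0.50 for Rora, with an unadjusted p of 0.132 in edgeR's quasi-likelihood test, the smallest among the members, and an adjusted p of 1.

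**Figure D3:**
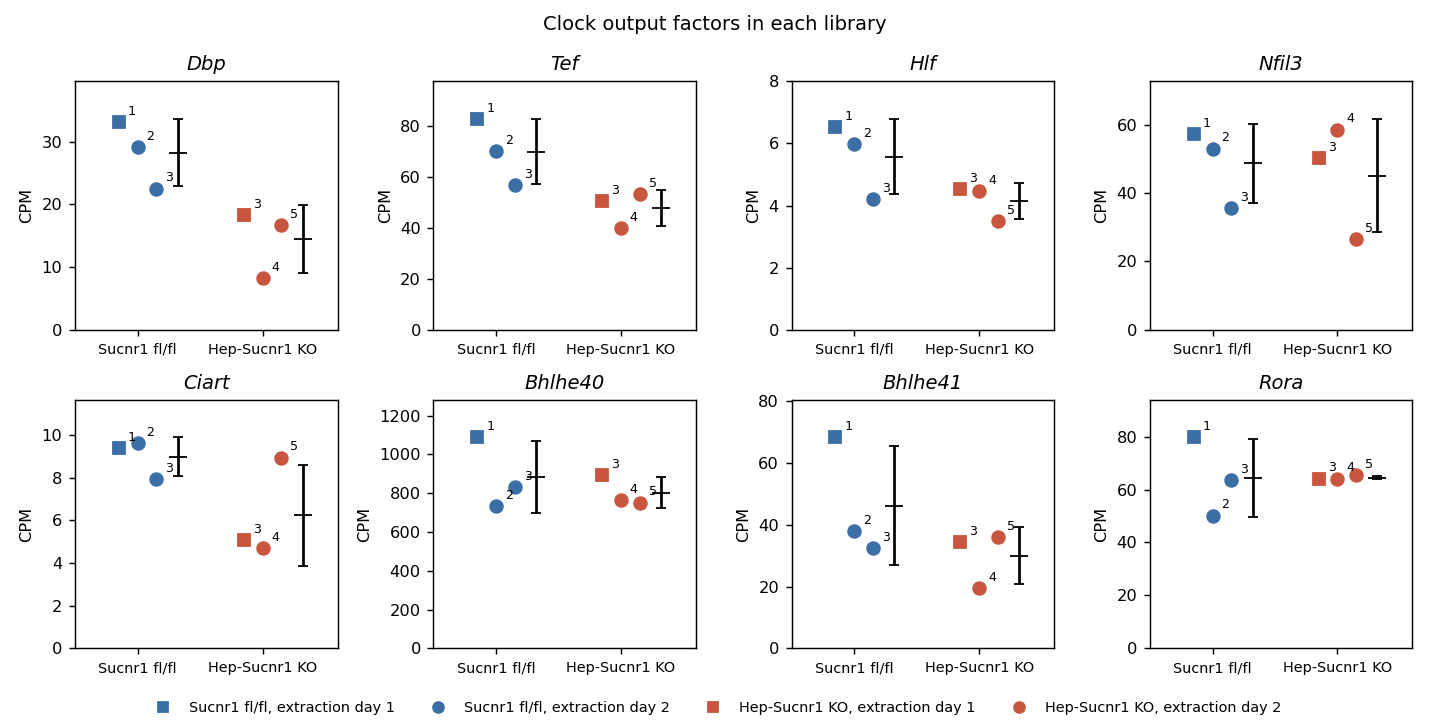
CPM of each clock output factor in each library (numbers are replicates), with squares for extraction day 1, circles for day 2, and bars for the mean ± SD of 3 libraries per genotype. Only Dbp and Tef have all Hep-Sucnr1 KO libraries below all Sucnr1 fl/fl libraries.

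Over the list, 7 of the 8 members were lower in Hep-Sucnr1 KO hepatocytes by the fit, against 49.5% of all genes tested, and Rora was the exception. The same 7 were lower both in the day 1 pair and in the day 2 means, as were 24.3% of all genes. The groups did not overlap, with KO lower, for 2 members, Dbp and Tef, and for 4.04% of all genes. The median difference was -0.48 on the log2 scale for the members, against 0.00 for all genes. These counts come from the contrast that was known when the list was made and support nothing about it. In edgeR's quasi-likelihood test 0 of the 15105 genes (0%) had an adjusted p below 0.05 for genotype. Sucnr1, the deleted gene, did not pass in this test either, with a log2 fold change of -2.23 (SE 0.54) and an adjusted p of 0.998. The absence of calls therefore does not show that no gene differed. At an unadjusted p below 0.05 there were 563 genes (3.73%). DESeq2 called 7 genes (0.0463%), among them Sucnr1 (adjusted p = 0.0386) and none of them a member.

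Sucnr1 fl/fl replicate 1 was the highest library for 6 of the 8 members, and KO replicate 4 was the lowest for 4.

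Markers of other liver cells were counted by genotype in the same fit, and none passed the adjusted threshold. The Kupffer cell markers were lower in KO by the fit for 9 of 9 genes (median log2 fold change -0.40) and summed to 34.2 to 123 CPM in the controls and 7.31 to 106 CPM in the KO libraries. This direction came from the day 1 pair, in which 9 of 9 were lower in KO (median log2 ratio -2.25), and on day 2 the KO means were higher for 9 of 9 (median 0.46). The sinusoidal endothelial markers were lower by the fit for 7 of 8 (median -0.25), with sums of 62.3 to 111 and 39.2 to 71.0 CPM. They too were lower in the day 1 pair for 8 of 8 (median -1.39), and on day 2 they were higher for 5 of 8 (median 0.21). Of the members, 8 of 8 were lower in KO in the day 1 pair (median log2 ratio -0.62). In the day 2 means 7 of 8 were lower (median -0.37), and Rora was higher. Those 7 were lower on both days, as were 24.3% of all genes, in the contrast known when the list was made. None of the markers on either list averaged below 1 CPM. The hepatocyte markers were higher for 5 of 8 (median 0.01). The part of these cell types in the genotype values of the members was not tested. In bulk RNA, fewer cells of a type and less RNA per cell cannot be told apart.

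**Figure D4:**
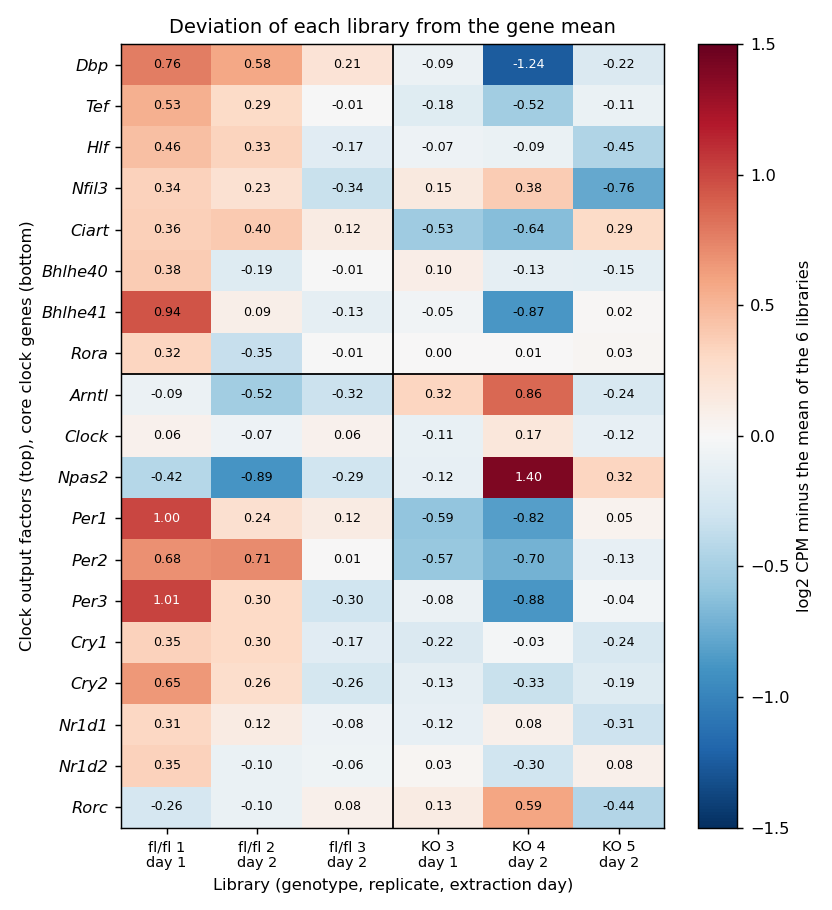
Log2 CPM of each library less the 6-library mean for the clock output factors (top) and the core clock genes (bottom), with red above and blue below the mean. Hep-Sucnr1 KO replicate 4 holds the extremes at -1.24 for Dbp and 1.40 for Npas2, and Sucnr1 fl/fl replicate 1 is highest for Bhlhe41, Per1 and Per3.

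The core clock genes that drive the output factors were set beside them. Of 11 tested, 8 were lower and 3 higher in KO, with a median log2 fold change of -0.23, and none passed the adjusted threshold. Per2, a period gene and an E-box target, had 16.4, 16.7 and 10.3 CPM in the Sucnr1 fl/fl libraries and 6.87, 6.26 and 9.35 CPM in the KO libraries. Its groups did not overlap, and its log2 fold change was -0.94 (SE 0.25). Per1 did not overlap either, at 109.9, 65.1 and 59.9 CPM against 36.6, 31.2 and 56.9 CPM (log2 fold change -0.86, SE 0.29). The difference in Per1 was -0.50 without Sucnr1 fl/fl replicate 1, and its log2 ratio was -1.59 in the day 1 pair and -0.57 on day 2.

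Npas2, a CLOCK paralog and a known target of the ROR element, stood on the other side, at 1.53, 1.11 and 1.68 CPM against 1.90, 5.43 and 2.58 CPM. Its log2 fold change was 1.12 (SE 0.41), and 0.64 without KO replicate 4. Arntl, which encodes BMAL1 and is also a known target of that element, had 5.15, 3.82 and 4.38 CPM against 6.84, 9.98 and 4.64 CPM, and its groups overlapped. In KO replicate 4, where Dbp was at 31.9% of the same-day controls, Arntl was at 243% and Npas2 at 389%. In KO replicate 5 the corresponding values were 64.8% for Dbp, 113% for Arntl and 185% for Npas2. In KO replicate 3 they were 55.4%, 133% and 124%, so Dbp and Npas2 were both lower there than in KO replicate 5. Clock itself was at 88.8 to 113% in the 3 KO libraries.

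The genes through which the output factors are known to act in liver were counted as lists. Of 14 PAR bZIP target genes, which include cytochromes P450, acyl-CoA thioesterases and the heme synthesis enzyme gene Alas1, 5 were higher and 9 lower in KO, with a median log2 fold change of -0.12. Cyp4a14, a fatty acid hydroxylase gene, had the lowest value at -1.51 (SE 0.73), and Cyp2a4, a steroid hydroxylase gene, the highest at 0.51 (SE 0.35). The Cyp4a14 libraries overlapped, at 12.1, 9.68 and 3.16 CPM against 1.17, 1.89 and 5.92 CPM. Its value became -2.42 when KO replicate 5 was left out and -0.72 when Sucnr1 fl/fl replicate 1 was. Cyp2a4 ran from 0.24 to 0.85 over the fits with 1 library left out. Of 10 ROR and REV-ERB target genes 8 were higher, with a median of 0.26, from Cry1 at -0.33 (SE 0.20) to Npas2. This list shares 5 genes with the core clock list. Of 7 relatives that bind D-box-like or ROR elements, 5 were lower (median -0.08), from Nr1d1, which encodes REV-ERBα, at -0.23 (SE 0.16) to Cebpd at 0.33 (SE 0.18). No gene of these lists passed the adjusted threshold.

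**Figure D5:**
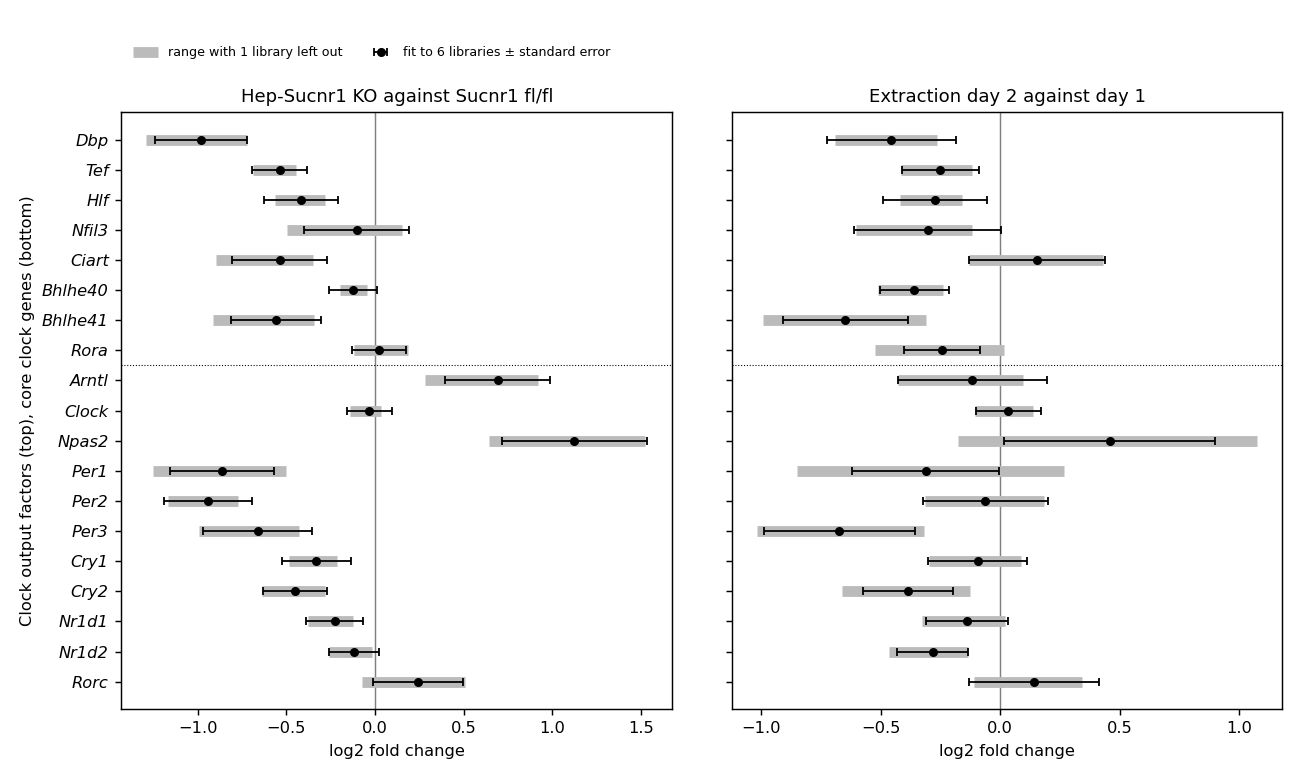
Fitted log2 fold changes by genotype, KO over control (left), and by extraction day, day 2 over day 1 (right), for the clock output factors (top) and core clock genes (bottom). Points are fits to 6 libraries with SE, and grey bars span the fits with 1 library left out: for Dbp they stay between -1.29 and -0.72 for genotype, and for Nfil3 they cross 0.

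Extraction day was compared in the same fit, with 2 libraries on day 1 and 4 on day 2. Again 7 of the 8 members were lower on day 2, against 46.7% of all genes, and Ciart was the exception at 0.15 (SE 0.28). The median difference was -0.29 on the log2 scale for the members, against 0.02 for all genes. Bhlhe41 was -0.65 (SE 0.26) and Bhlhe40 -0.36 (SE 0.14), with adjusted p of 0.636 for both genes in edgeR's quasi-likelihood test. These were the 2 members with an unadjusted p below 0.05 in the direction of lower values on day 2, a limit that 2.33% of all genes passed. Bhlhe40 was also the 1 member whose days did not overlap, with 894 and 1087 CPM on day 1 and 732 to 832 CPM on day 2, as in 6.29% of all genes. For day, 0 of 15105 genes had an adjusted p below 0.05 in edgeR (0%), 1132 had an unadjusted p below 0.05 (7.49%), and DESeq2 called 220 (1.46%) with none of the members among them. The difference for Bhlhe41 rested largely on Sucnr1 fl/fl replicate 1 and was -0.31 without it, while leaving out 1 library moved Bhlhe40 between -0.51 and -0.24. The Kupffer cell markers were higher on day 2 for 9 of 9 genes (median log2 fold change 2.07) and the blood cell markers for 7 of 7 (median 1.46). The stellate cell markers were lower on day 2 for 5 of 5 tested genes (median -1.17), but 6 of the 8 listed averaged below 1 CPM. Their sum was 21.6 CPM in Sucnr1 fl/fl replicate 1 and 3.60 to 8.12 CPM in the other libraries. Lower on day 2 were also 7 of 8 sinusoidal endothelial markers (median -0.24), 3 of 4 cholangiocyte markers (-0.30) and 5 of 8 hepatocyte markers (-0.01). The part of these cells in the day values of the members was not tested.

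The genotype difference of no gene differed between the days at an adjusted p below 0.05 in edgeR's test of the interaction (0 of 15105), with 557 genes (3.69%) at an unadjusted p below 0.05 and 4 genes (0.0265%) called by DESeq2. No member was among either set.

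The genes most like each member over the 6 libraries were found among 15076 other genes as those with the smallest root mean square difference of centred log2 CPM. For Dbp they were Wnt9a (0.13), Unc5b (0.16) and Unc45b (0.17), and for Tef they were Pdf (0.07), Zfp677 (0.09) and Spns2 (0.10). Hlf was nearest to Klf9, 0610040J01Rik and Bptf (0.06 to 0.07), and Nfil3 to Pik3r1, Bach2 and Pdk4 (0.08 to 0.10). Ciart was nearest to Gm9958, Whrn and Gm49494 (0.09 to 0.12) and Bhlhe40 to Map4k5, Tbc1d8b and Zbtb1 (0.03 to 0.05). Bhlhe41 was nearest to Npc1, Serpinh1 and the period gene Per3 (0.10 to 0.11), and Rora to Slc25a15, Zfp1 and Acsl5 (about 0.05 each). Of these genes, Unc45b, Pdf, Zfp677, Gm9958, Whrn and Gm49494 averaged only 0.17 to 0.75 CPM, so their patterns rest on few counts. Among the members themselves the nearest pair was Bhlhe40 and Rora (0.12), and Dbp was nearest to Bhlhe41 (0.31). Nfil3 was nearest to the activator Hlf (0.26), and the most distant pair was Dbp and Nfil3 (0.77). With 6 libraries these distances describe the libraries only.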

How the data were processed

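Polyadenylated RNA of cultured primary hepatocytes was measured by stranded paired-end sequencing in 6 libraries, 3 per genotype. The authors trimmed the reads (Trim Galore 0.6.7), aligned them to GRCm38 (STAR 2.7.10a) and counted read pairs per gene with featureCounts, using strand, and they deposited raw counts, which are not normalized. Groups and extraction days came from the labels. One table of 25184 genes was used, of which 25096 had a symbol in the GENCODE annotation of the same build, which also gave the coordinates and exon lengths.

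CPM were scaled with TMM factors. Genes with a mean DESeq2-normalized count above 5 were kept (15105). Genotype, extraction day and their interaction were tested over all of them with edgeR 4.0.16 (quasi-likelihood test, model of day and genotype) in R 4.3.3, adjusting p by Benjamini-Hochberg and calling genes below 0.05. The paper used DESeq2 with the extraction date, and DESeq2 1.42.0 was the alternative. Other alternatives were DESeq2 size factors or library size alone, no filter or edgeR's filter, no covariate, day 2 alone, the index series as a term and each library left out. The balance at the D-box was also taken without division by length and with Dbp alone. Log2 CPM for deviations used a prior count of 2. Sequences are those of RefSeq. Tables were made with Python 3.11.15 and pandas 2.3.3.

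The members and the lists were chosen with earlier results of these data known, and the genotype values of the members therefore carry no unadjusted or exact p. The genes named are the 8 members and Sucnr1, core clock genes where a result turns on one, the gene with the largest value in each direction in each other list for genotype and for day, and the 3 genes nearest to each member. At 1 CPM a gene had more than 30 counts in every library, so the spread between libraries, with a common biological coefficient of variation of 0.206, set the precision more than counting did. The labels name separate samples, and each is taken as 1 mouse. On counts simulated for the genotype comparison over 15105 genes, 200 genes were changed and no day effect was added. Of the 100 genes given a log2 change of 1, edgeR called 44 and DESeq2 54. Of the 100 given a change of 2, each called 80. Of the unchanged genes, edgeR called 8 and DESeq2 30. On counts simulated for extraction day they called 21 and 43 unchanged genes. The number of changed genes in the real comparison is unknown, so these figures need not hold for it. Raw reads were not analysed here.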

Additional observations from a re-analysis of the deposited data

How the results depend on the processing

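Dbp, Tef, Hlf, Ciart, Bhlhe40 and Bhlhe41 were lower in Hep-Sucnr1 KO hepatocytes under all alternatives tried, and 7 or 8 members were lower with each library left out or with day 2 alone, alternatives chosen after seeing the data. The genotype difference of Rora turned to 0.00 (-0.0036) with library size alone and to -0.066 with the index series as a term, and ran from -0.12 to 0.19 with 1 library left out. That of Nfil3 turned to 0.27 with the index series and ran from -0.50 to 0.15 with 1 library left out. For extraction day, Rora ran from -0.53 to 0.014 and Ciart from -0.13 to 0.43, where Ciart turned to -0.13 without Hep-Sucnr1 KO replicate 3 and to -0.10 without replicate 5. The D-box ratio kept its direction, with a difference of -0.48 without division by length, -0.88 with Dbp alone, and -1.02 to -0.15 with 1 library left out.

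For genotype, edgeR called 0 genes, DESeq2 7, and DESeq2 with its own filter on low counts, added after seeing the data, 13. For day, edgeR called 0 genes, DESeq2 220 (227 with its own filter), edgeR without a filter 122, and the fits without 1 library 0 to 29, the highest without Sucnr1 fl/fl replicate 2. For the interaction, edgeR called 0, DESeq2 4, and the fits without 1 library 0 to 1, the 1 without Hep-Sucnr1 KO replicate 4. The cause of these differences was not tested. No member was called in any of these fits, but in DESeq2 with its own filter Dbp, Hlf, Ciart and Bhlhe41 had no adjusted p for genotype and were not evaluated. Where day 1 is left with 1 library, that library is assumed to vary like the others. No paired analysis was run, because the labels pair no libraries between the genotypes beyond the extraction day, which is in the model. Replicate number 3, the only one that the genotypes share, falls on different days.

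Groups of 3 cannot give an exact two-sided permutation p below 0.1. Without the time of day of isolation, phase could not be a term in the fit. The index series overlaps with genotype in part. With it in the fit, Sucnr1 fl/fl replicate 3 is the only control in its series, and the genotype difference rests on that library as control. It was the lowest control for Dbp, Tef, Hlf, Nfil3, Ciart and Bhlhe41, but not for Bhlhe40 or Rora. The genotype difference was then -0.79 for Dbp, -0.31 for Tef, -0.08 for Hlf (from -0.42), -0.27 for Ciart (from -0.54), -0.18 for Bhlhe40 and -0.30 for Bhlhe41 (from -0.56). These moves cannot be read as the removal of a batch. Exons of Dbp share 18.0% of their bases with Sphk2 and those of Bhlhe41 share 19.0% with Gm43909, both on the opposite strand, which strand-specific counting separates only as far as the library kept strand. Smaller opposite-strand overlaps of 0.627 to 2.51% touch Tef, Bhlhe40 and Rora.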

Other observations

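Bhlhe40 and Bhlhe41 are known to respond to low oxygen as well as to the clock, so genes induced by hypoxia-inducible factors were counted beside them. Of 10 listed genes 9 were tested. For genotype 5 were higher and 4 lower, with a median log2 fold change of 0.00, from Egln3, an oxygen-sensing prolyl hydroxylase gene, at -0.07 (SE 0.25) to Adm, the adrenomedullin gene, at 0.26 (SE 0.35). In the day 1 pair 8 of 9 were lower in KO, and on day 2 the KO means were higher for 9 of 9. For extraction day all 9 were lower on day 2, against 46.7% of all genes, with a median of -0.36. The value nearest to 0, that of Adm at -0.06 (SE 0.37), ran from -0.46 to 0.33 with 1 library left out. Ankrd37 had the lowest value at -0.81 (SE 0.31, adjusted p = 0.603 in edgeR and 0.374 in DESeq2), with 15.4 and 13.8 CPM on day 1 and 5.47, 10.8, 6.35 and 10.9 CPM on day 2, and its days did not overlap. No gene of this list passed the adjusted threshold in edgeR. Whether low oxygen had a part in the values of Bhlhe40 and Bhlhe41 was not tested.

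Alas1, the gene of the first and rate-limiting enzyme of heme synthesis and a PAR bZIP target, went the other way with day. It had 97.2 and 101.3 CPM on day 1 and 183.2, 172.8, 273.1 and 170.8 CPM on day 2, with a log2 fold change of 1.00 (SE 0.21). The adjusted p was 0.427 in edgeR and 0.00377 in DESeq2, which called Alas1 for day. The days did not overlap, as in 14.8% of all genes in either direction, while Dbp, Tef and Hlf were -0.46, -0.25 and -0.27 in the same comparison. Of the 14 PAR bZIP target genes, 10 were higher and 4 lower on day 2 (median log2 fold change 0.17), while 46.7% of all genes were lower. Alas1 had the highest day value of that list, and Cyp2b10 had the lowest at -0.49 (SE 0.72).

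Of 6 other clock-driven liver transcripts 4 were lower in KO (median log2 fold change -0.12), from Usp2, a ubiquitin protease gene, at -0.62 (SE 0.39, and -0.22 without Sucnr1 fl/fl replicate 2) to Elovl3, a fatty acid elongase gene, at 0.66 (SE 0.37). Elovl3 stood at 137.9, 132.0 and 137.1 CPM in the Sucnr1 fl/fl libraries and at 216.5, 323.4 and 105.1 CPM in KO replicates 3, 4 and 5, so KO replicate 4 was again at an extreme, and without it the value was 0.09. By day the values of this list ran from -0.61 (SE 0.32) for Tsc22d3 to 0.16 (SE 0.41) for Usp2. In the ROR and REV-ERB target list they ran from -0.42 (SE 0.16) for Insig2 to 0.46 (SE 0.44) for Npas2, and among the relatives from -0.28 (SE 0.15) for Nr1d2 to 0.26 (SE 0.20) for Cebpd.

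The KO library with the least Sucnr1 left was replicate 5, and that with the least Dbp was replicate 4. Sucnr1 stood at 39.6, 23.8 and 4.37% of the same-day controls in KO replicates 3, 4 and 5, and Dbp at 55.4, 31.9 and 64.8%. Whether the levels of Sucnr1 and Dbp are related was not tested.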
